A study of Mus musculus with 2 samples.

Results

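A list of 45 cell cycle genes was followed through the epithelial cell classes of mouse back skin and preputial gland (PG), 17 of them genes of S phase and 28 genes of G2 and mitosis (G2/M), out of 32285 genes in the deposited count matrices. The members were matched by gene symbol and taken from barcodes with at least 500 genes, at least 1000 unique molecular identifiers (UMIs) and at most 10% mitochondrial UMIs. Each of the 45 had UMIs in both tissues. Over all kept cells the S genes summed to 11585 UMIs in skin and 7660 in PG, and the G2/M genes to 23081 and 10478.

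A dividing cell copies its DNA in S phase and separates the copies in mitosis. The S genes encode the replicative helicase and its loaders, the sliding clamp and the enzymes that make deoxynucleotides, and are switched on by E2F factors around the start of replication. The G2/M genes encode mitotic cyclins and kinases, kinetochore proteins, spindle motors and the machinery of anaphase, are held down in resting cells by the DREAM complex and peak before and during mitosis. In skin, division is known from the basal layer of the epidermis and from the matrix of the growing hair follicle (HF), and sebocytes (SEB) are renewed from basal cells at the edge of the gland, fill with lipid and disintegrate.

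The 2 samples were back skin biopsies and whole PG of male C57BL/6 wild type mice aged 52 weeks. Cells of 3 mice were pooled per tissue and measured as 1 droplet-based single-cell library each, without sorting, so there was no replicate and no test between tissues. Library and tissue cannot be told apart, and the barcode lists also differ in length, with 6794880 barcodes for skin and 737280 for PG. No kept barcode was in both libraries. Skin gave 8899 kept cells with a median of 2386 UMIs, and PG 4699 with a median of 2729, of which 6905 and 3503 were epithelial.

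Cells were placed in classes one by one from the UMIs of marker genes, with no cell cycle gene among the markers, and class names below stand for these gates. Skin basal keratinocytes had a median of 221 basal marker UMIs (such as *Krt5*, *Krt14* and *Col17a1*) per 10000 UMIs, against 52.2 in PG basal cells. PG basal cells also had a median of 12.9 sebocyte marker UMIs per 10000, where skin basal cells had 0. PG early SEB kept basal markers (median 40.4) beside sebocyte markers (35.3), while late SEB were gated on markers of lipid-filled cells such as *Awat2*, *Elovl3* and *Soat1*. Skin gave only 53 SEB, against 1187 in PG. Cells with markers of more than 1 lineage, 4% of skin and 5.17% of PG cells, were left out as mixed, and 2.91% and 2.87% stayed without a class.

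Promoter sequence was compared between the lists, since the choice of members did not use it. The RefSeq table of promoters for build GRCm38.p6, from 250 bases before to 50 bases after the gene start, held 23 of the 28 G2/M genes and 14 of the 17 S genes. *Mcm4*, *Exo1*, *Gins2*, *Aurkb*, *Ccna2*, *Cdc25c*, *Tpx2* and *Ska1* had no entry. A gene was counted once, if any of its promoter entries held a match. The cell cycle genes homology region (CHR) was searched as TTTGAA on either strand. It occurred for 16 of the 23 G2/M genes (69.6%), for 1 of the 14 S genes (7.14%, *Mcm2*) and for 20.2% of all 27025 genes with an entry. An E2F site was searched as TTTCCCGC, TTTGGCGC, TTTCGCGC or TTTGCCGC on either strand. It occurred for 9 of the 14 S genes (64.3%), for 1 of the 23 G2/M genes (4.35%, *Cdk1*) and for 2.6% of all. The CCAAT box was as frequent in both lists, at 78.6% of S and 78.3% of G2/M genes with an entry, against 41.1% of all. A stretch matching more than 1 motif was counted for each, and a match is a description of letters, not evidence of binding.

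The windows around the match are shown for the 3 members of each list with most UMIs among those that held the motif upstream of the gene start, 5′ to 3′ on the strand of the gene, with the matching letters in capitals. *Top2a* lies at chr11:99024190-99024252 (minus strand), *Mki67* at chr7:135716432-135716517 (minus strand), *Ube2c* at chr2:164769860-164769928 (plus strand), *Mcm7* at chr5:138172001-138172088 (minus strand), *Mcm6* at chr1:128359706-128359792 (minus strand) and *Uhrf1* at chr17:56304088-56304175 (plus strand). Each window lies upstream of the gene start. The capitals are the CHR in the first 3 windows, on the opposite strand in *Top2a* and *Ube2c*, and the E2F site in the other 3, on the opposite strand in *Mcm7*. The *Mki67* window holds a further CHR match, left in lower case.
Top2a: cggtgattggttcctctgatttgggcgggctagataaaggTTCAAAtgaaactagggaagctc
Mki67: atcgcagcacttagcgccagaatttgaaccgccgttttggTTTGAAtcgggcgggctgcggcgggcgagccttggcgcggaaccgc
Ube2c: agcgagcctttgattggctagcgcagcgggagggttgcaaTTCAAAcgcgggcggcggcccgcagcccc
Mcm7: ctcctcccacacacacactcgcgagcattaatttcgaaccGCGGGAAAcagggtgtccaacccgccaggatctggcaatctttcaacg
Mcm6: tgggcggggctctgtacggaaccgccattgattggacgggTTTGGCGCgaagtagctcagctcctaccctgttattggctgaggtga
Uhrf1: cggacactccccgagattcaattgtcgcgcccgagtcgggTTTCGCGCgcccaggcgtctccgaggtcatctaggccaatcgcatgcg
Between the capitals and the gene start lay 17 bases in *Top2a*, 92 in *Mki67*, 23 in *Ube2c*, 157 in *Mcm7*, 39 in *Mcm6* and 177 in *Uhrf1*.

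To count cycling cells, every cell was thinned at random to 1000 UMIs. Deep and shallow cells then had the same chance of showing a gene that made up the same share of their UMIs. At the same number of UMIs of a gene per cell, deeper cells had the lower chance. A cell was called S with UMIs of at least 2 different S genes, G2/M with UMIs of at least 2 different G2/M genes, and cycling with either call. The exact binomial 95% intervals below cover counting error only. In skin, 12.2% of the 6905 epithelial cells were cycling (11.4 to 13%), and in PG 18.3% of 3503 (17 to 19.6%). Without thinning these shares were 22.6% and 34.3%. Fibroblasts served as background and gave 1.57% of 958 cells in skin (0.879 to 2.57%, median 1773.5 UMIs) and 1.94% of 566 in PG (0.974 to 3.45%, median 1332 UMIs).

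**Figure D1:**
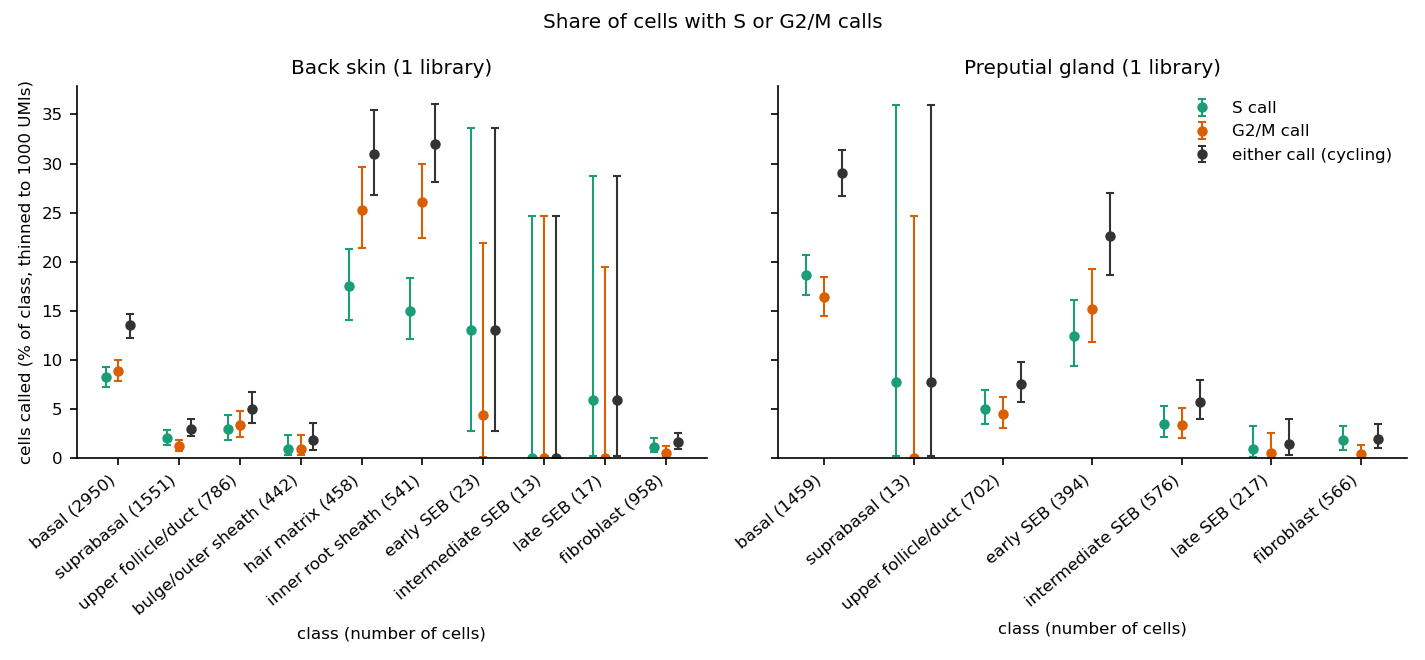
Share of cells called S (green), G2/M (orange) and cycling (black) in each class of back skin and PG, in percent of the class after thinning to 1000 UMIs, with exact 95% binomial intervals and the number of cells under each class. Hair matrix and inner root sheath stand at 31% and 32% cycling cells in skin, and PG runs from 29% in basal cells and 22.6% in early SEB to 1.38% in late SEB.

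In skin, the cells of the hair bulb cycled most. Of 458 hair matrix cells 31% were cycling (95% interval 26.8 to 35.5%), and of 541 inner root sheath cells 32% (28.1 to 36.1%), so the intervals of these classes overlapped. In both, G2/M calls were more frequent than S calls, with 25.3% against 17.5% in hair matrix and 26.1% against 15% in inner root sheath. The order of S and G2/M shares depends on the number and level of the genes in each list, so it was not read as the length of a phase. Of 2950 basal keratinocytes 13.5% were cycling (12.2 to 14.7%), with 8.24% S and 8.85% G2/M calls.

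Upper follicle, suprabasal, and bulge and outer sheath cells of skin were low. Epithelial skin cells that met no gate beyond the epithelial one were not, at 25% of 124 cells (17.7 to 33.6%). Cycling cells made up 4.96% of 786 upper follicle cells (3.55 to 6.72%), 2.97% of 1551 suprabasal keratinocytes (2.18 to 3.94%) and 1.81% of 442 bulge and outer sheath cells (0.785 to 3.54%). The last interval included the fibroblast share of 1.57%, so cycling in bulge and outer sheath cells was not distinguishable from background at this depth (median 1609 UMIs). Basal cells, as the largest class, held 47.3% of the 840 cycling epithelial cells of skin, although they were 42.7% of the epithelial cells. Hair matrix was 6.63% of the epithelial and 16.9% of the cycling cells, and inner root sheath 7.83% and 20.6%.

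In PG, among classes with a gate of their own, cycling cells were most frequent in basal keratinocytes and early SEB. Epithelial cells that met no gate beyond the epithelial one were at 27% of 137 cells (19.8 to 35.3%). Of 1459 basal cells 29% were cycling (26.7 to 31.4%), with 18.6% S and 16.4% G2/M calls, and of 394 early SEB 22.6% (18.6 to 27%), with 12.4% S and 15.2% G2/M calls. Intermediate SEB, with sebocyte markers but few markers of either stage, gave 5.73% of 576 cells (3.98 to 7.95%), and late SEB 1.38% of 217 (0.286 to 3.99%). The late share rested on 3 cells, and its interval overlapped that of fibroblasts. Late SEB were the deepest class, with a median of 6800 UMIs, and without thinning 29% of them passed the same call, against 42.1% of early SEB.

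Duct keratinocytes of PG, gated on the markers that defined the upper follicle in skin, gave 7.55% of 702 cells (5.71 to 9.76%). Only 13 PG cells were suprabasal and 1 of them was cycling (7.69%, 0.195 to 36%). Of the 640 cycling epithelial cells of PG, 5.78% met no gate beyond the epithelial one. Basal cells made up 66.1%, early SEB 13.9%, duct cells 8.28%, intermediate SEB 5.16% and late SEB 0.469%. Cycling was thus counted in cells that already held sebocyte markers, and 51.5% of the early SEB lay within 1.5 times of the marker cut that separated them from basal cells. Of those near the cut 28.6% were cycling, and of the 191 beyond it 16.2%.

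The gated SEB of skin (sSEB) were too few to place beside those of PG (pSEB). Of 23 early sSEB 3 were cycling (13%, 2.78 to 33.6%), of 13 intermediate sSEB 0, where a count of 0 allows a share of up to 23.1%, and of 17 late sSEB 1 (5.88%, 0.149 to 28.7%). The 3 cycling early sSEB were among the 10 near the cut of the gate, and 0 of the 13 beyond it were cycling. Over all stages 4 of 53 sSEB were cycling (7.55%, 2.09 to 18.2%), against 10.5% of 1187 pSEB (8.84 to 12.4%). These intervals overlapped, so a difference between sSEB and pSEB was not detectable. The pooled shares also rest on unlike mixes of stages, with 394 early, 576 intermediate and 217 late pSEB.

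**Figure D2:**
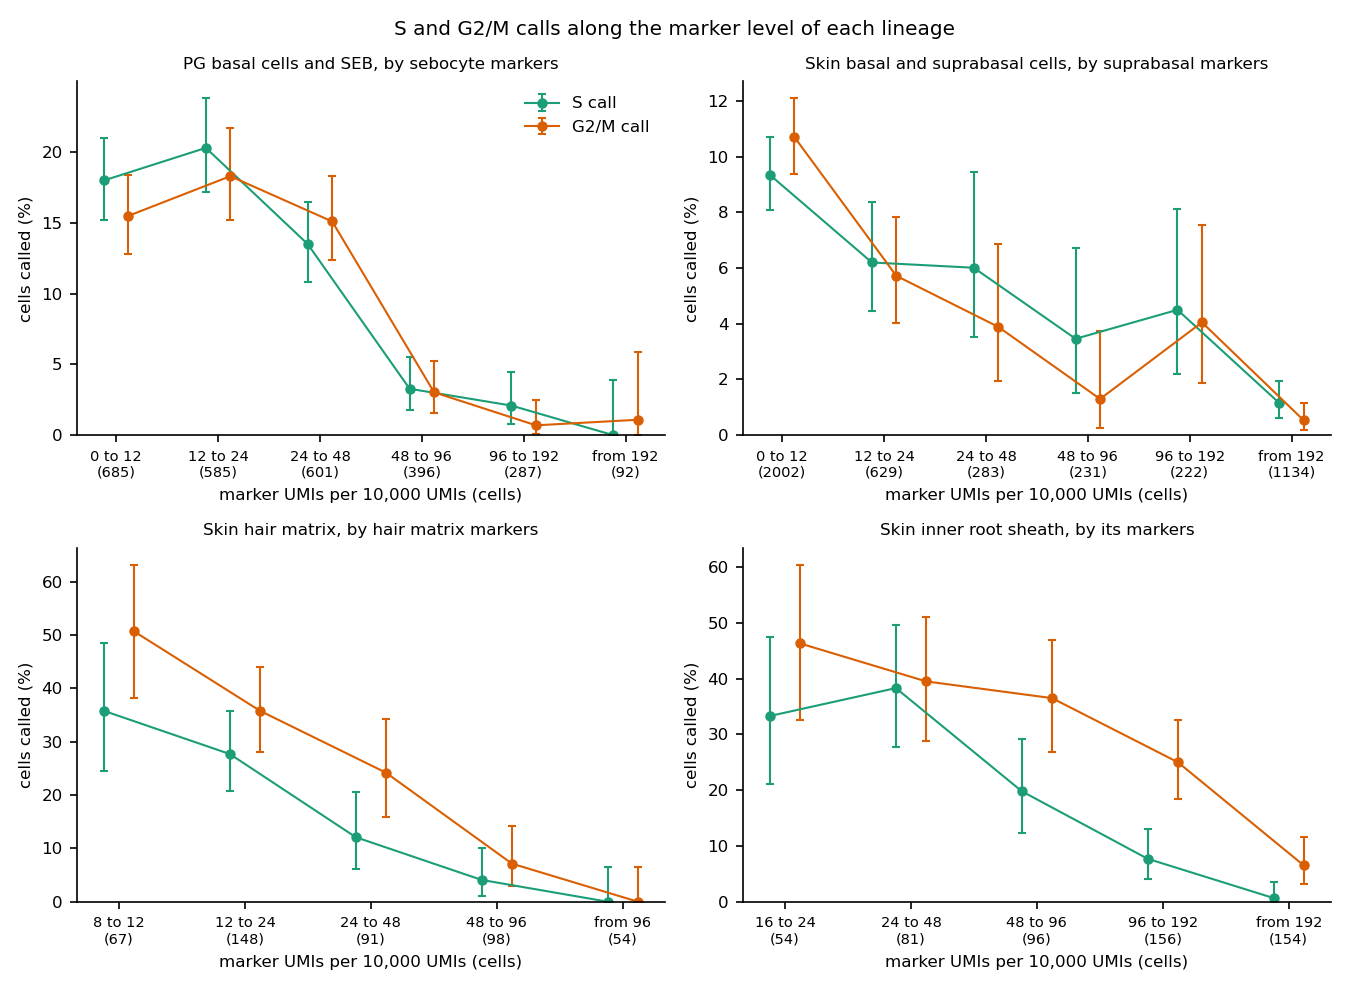
Share of cells called S (green) and G2/M (orange), in percent with exact 95% binomial intervals, against the level of lineage markers in marker UMIs per 10000 UMIs of a cell, for PG basal cells with SEB, skin basal with suprabasal cells, hair matrix and inner root sheath. Hair matrix S and G2/M calls go from 35.8% and 50.7% to 0%, while the PG shares first go up, from 18% to 20.3% for S calls.

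The share of cycling cells changed along the markers within classes as well as between them. PG basal cells and SEB, pooled, were cycling in 27% of cells with under 12 sebocyte marker UMIs per 10000, 32.6% from 12 to 24, 23.6% from 24 to 48, 5.3% from 48 to 96, 2.79% from 96 to 192 and 1.09% beyond. The step was between 24 to 48 and 48 to 96, where the intervals (20.3 to 27.2% and 3.31 to 7.99%) did not overlap. Along late stage markers alone, pSEB went from 19.1% without these markers to 6.6% between 4 and 8 and 0.873% between 8 and 16 UMIs per 10000, and stood at 1.32% of 76 cells beyond.

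In the hair bulb the gradients were as steep. Hair matrix cells were cycling in 62.7% of the 67 cells just above the gate, 45.3% of the next bin, then 27.5% and 8.16%, and in 0 of the 54 cells with at least 96 marker UMIs per 10000, where a count of 0 allows up to 5.56%. The markers of this gate were *Lef1*, *Hoxc13*, *Msx2*, *Dlx3*, *Shh*, *Krt35*, *Krt36* and *Krt85*. Which of them filled the upper bins was not examined, so not all bins need hold matrix cells. Inner root sheath cells went from 57.4% through 55.6%, 45.8% and 26.9% to 7.14%. S calls there had fallen to 7.69% between 96 and 192 marker UMIs while G2/M calls stood at 25%, and beyond 192 they were at 0.649% and 6.49%.

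Epidermal and ductal cells with most markers also had the lowest shares, with uneven steps before. Skin basal and suprabasal cells went from 15.7% cycling with under 12 suprabasal marker UMIs per 10000 to 1.59% with 192 or more, with 8.11% of 222 cells between 96 and 192 above the 4.33% of 231 cells below them, a difference within their intervals. PG basal and duct cells went from 29.8% to 2.41% along the duct markers, and skin basal and upper follicle cells from 13% through 18.8% to 2.63%. The upper follicle markers include *Lrig1* and *Krt17*, which basal cells can also express. Total UMIs rose along the sebocyte markers, from a median of 2588 in the lowest bin to 7527 in the highest, and the calls were made after thinning.

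The levels of single genes are given as CPM, the UMIs of a gene summed over the cells of a class and scaled to 1000000 UMIs of that class, with exact Poisson 95% intervals where stated. CPM is not corrected for gene length, so levels are compared between classes and not between genes. Genes were ranked over fibroblasts and the epithelial classes with a gate of their own, each of at least 100 cells. In skin, the highest level of the 28 G2/M genes was in inner root sheath for 18 and in hair matrix for 10. The 17 S genes were highest in hair matrix for 8, in inner root sheath for 8 and in basal cells for *Gins2*. In PG, 22 G2/M and 15 S genes were highest in basal cells and 6 G2/M genes and *Tyms* in early SEB. *Cdc6* was highest in PG fibroblasts, at 6 CPM from 5 UMIs against 5.34 in basal cells, which is within counting error. Epithelial cells of PG that met no further gate were not ranked. Their S genes summed to 1080 CPM (981 to 1190), above the 899 of basal cells, and their G2/M genes to 1280 CPM, below the 1400 of basal cells.

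**Figure D3:**
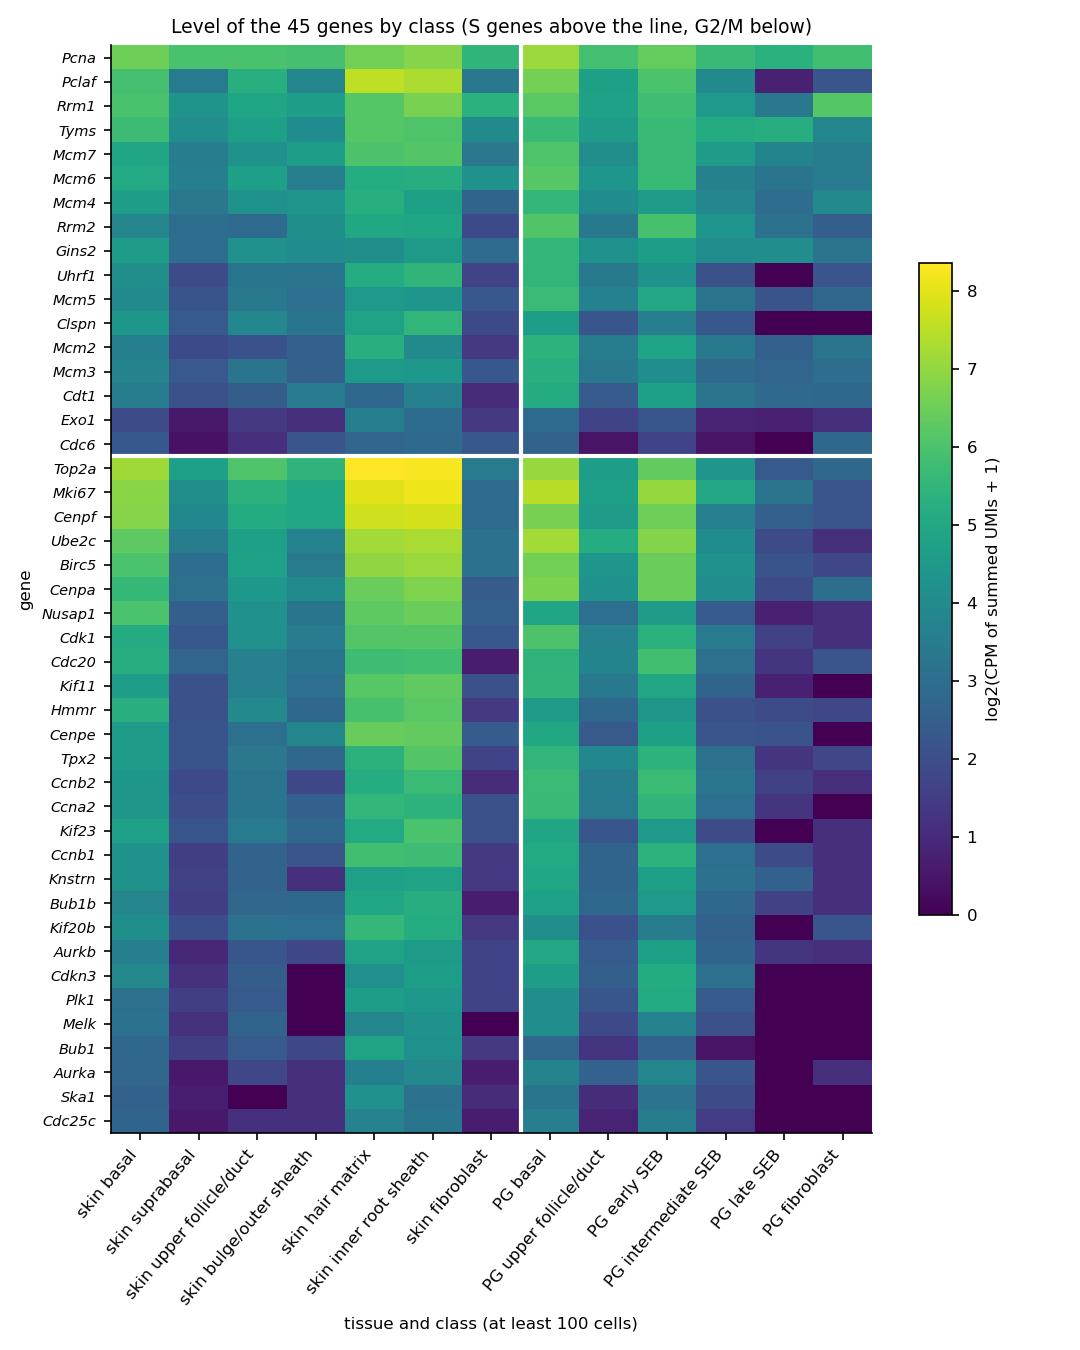
Level of each of the 45 genes (CPM on a log colour scale), S genes above the line and G2/M genes below. Shown are fibroblasts and the epithelial classes with a gate of their own, each with at least 100 cells. Hair matrix, inner root sheath, PG basal cells and PG early SEB are bright over nearly all genes, and the G2/M genes are dark in fibroblasts and late SEB.

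Of the S genes, the sliding clamp and its partner behaved differently from each other across classes. *Pcna*, the clamp of DNA polymerase that also serves repair, stood at 90.7 CPM in skin basal cells, 61.7 in suprabasal, 96 in hair matrix, 114 in inner root sheath and 43 in fibroblasts. In PG it was at 136 CPM in basal cells, 82.1 in early SEB, 49.5 in intermediate SEB, 39.9 in late SEB and 56.4 in fibroblasts. *Pclaf*, a PCNA-associated factor, ran from 58 CPM in skin basal cells to 10.1 in suprabasal and 187 in hair matrix, and from 96.8 in PG basal cells to 62.3 in early, 14.8 in intermediate and 0.7 (1 UMI) in late SEB. *Pcna* thus kept a level in classes with few cycling cells, and *Pclaf* did not.

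The enzymes of deoxynucleotide synthesis also differed among themselves. *Rrm1*, the large subunit of ribonucleotide reductase, was at 74.3 CPM in PG basal cells and at 70.8 (95% interval 53.9 to 91.3) in PG fibroblasts, so it did not separate these classes. *Rrm2*, the small subunit, was at 67.5 CPM in PG basal cells and 4.8 in fibroblasts, and at 13.1 and 2.72 in skin. *Tyms*, thymidylate synthase, changed less along the PG lineage, with 48.5 CPM in basal cells (42 to 55.8), 49.9 in early, 34.7 in intermediate (28.1 to 42.4) and 35.7 (26.6 to 46.9) in late SEB.

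Among the ranked PG classes, the helicase subunits *Mcm2* to *Mcm7* were each highest in basal cells. *Mcm7* stood there at 66.3 CPM, at 49.9 in early SEB and 12.6 in late SEB, and in skin at 29.6 CPM in basal, 64.2 in hair matrix and 10.4 in suprabasal cells. *Mcm2* was at 41.3 CPM in PG basal and 37.9 in skin hair matrix cells, against 11.2 in skin basal cells. *Uhrf1*, which carries maintenance methylation onto new DNA, went from 44.2 CPM in PG basal cells through 18.3 in early and 3.25 in intermediate SEB to 0 of the UMIs of late SEB. *Gins2*, of the GINS complex of the helicase, kept 16.1 CPM in late SEB against 24.2 in early SEB.

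Among G2/M genes, the proliferation marker *Mki67*, which coats mitotic chromosomes, stood at 118 CPM in skin basal cells (111 to 126), 16.7 in suprabasal, 252 in hair matrix, 282 in inner root sheath and 6.53 in fibroblasts. In PG it was at 176 CPM in basal cells (164 to 190), 130 in early SEB, 32.2 in intermediate SEB, 8.4 in late SEB and 3.6 in fibroblasts. *Top2a*, the topoisomerase that untangles chromosomes, was at 144, 25.2, 329, 308 and 9.79 CPM in these skin classes and at 133, 81.4, 20.2, 4.2 and 6 CPM in those of PG. The late SEB intervals of both genes (4.34 to 14.7 and 1.54 to 9.14 CPM) overlapped those of PG fibroblasts.

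The kinetochore genes *Cenpf* and *Birc5* (survivin) and the ubiquitin-conjugating enzyme of anaphase *Ube2c* were at 114, 63.3 and 76.7 CPM in skin basal cells and at 100, 95.9 and 147 CPM in PG basal cells. Early SEB held 90.9, 87.3 and 111 CPM of them and late SEB 4.9, 3.5 and 2.8. *Plk1*, a kinase that drives entry into mitosis, was at 33.7 CPM in early SEB and 16.3 in PG basal cells. *Cdc20*, the activator of the anaphase-promoting complex, was at 55.7 and 42.7 CPM, and *Ccnb1*, a mitotic cyclin, at 41.8 and 33.5. These 3 are among the 6 G2/M genes whose maximum over the ranked PG classes was in early SEB, beside *Aurka*, *Ccnb2* and *Cdkn3*. Only for *Plk1* did the interval of the ratio to basal cells lie above 0.

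Ratios between classes were formed for genes with at least 20 UMIs in both classes together and a mean of at least 10 CPM, and a gene was counted as higher or lower past 2-fold. Since a gene could pass this filter through the class in which it was high, the counts over members that passed describe those members only. They are set beside the share of all genes past 2-fold in the same comparison. The median log2 ratio of all genes tested was 0.10 for PG over skin basal cells, 0.07 for PG early SEB over PG basal cells, -0.24 for PG late over early SEB, 0.29 for skin hair matrix over basal cells and -0.11 for skin suprabasal over basal cells. With ratios divided by this median, the background became 11.4% higher and 11.9% lower for late over early SEB, and 9.59% and 17.7% for hair matrix over basal cells.

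**Figure D4:**
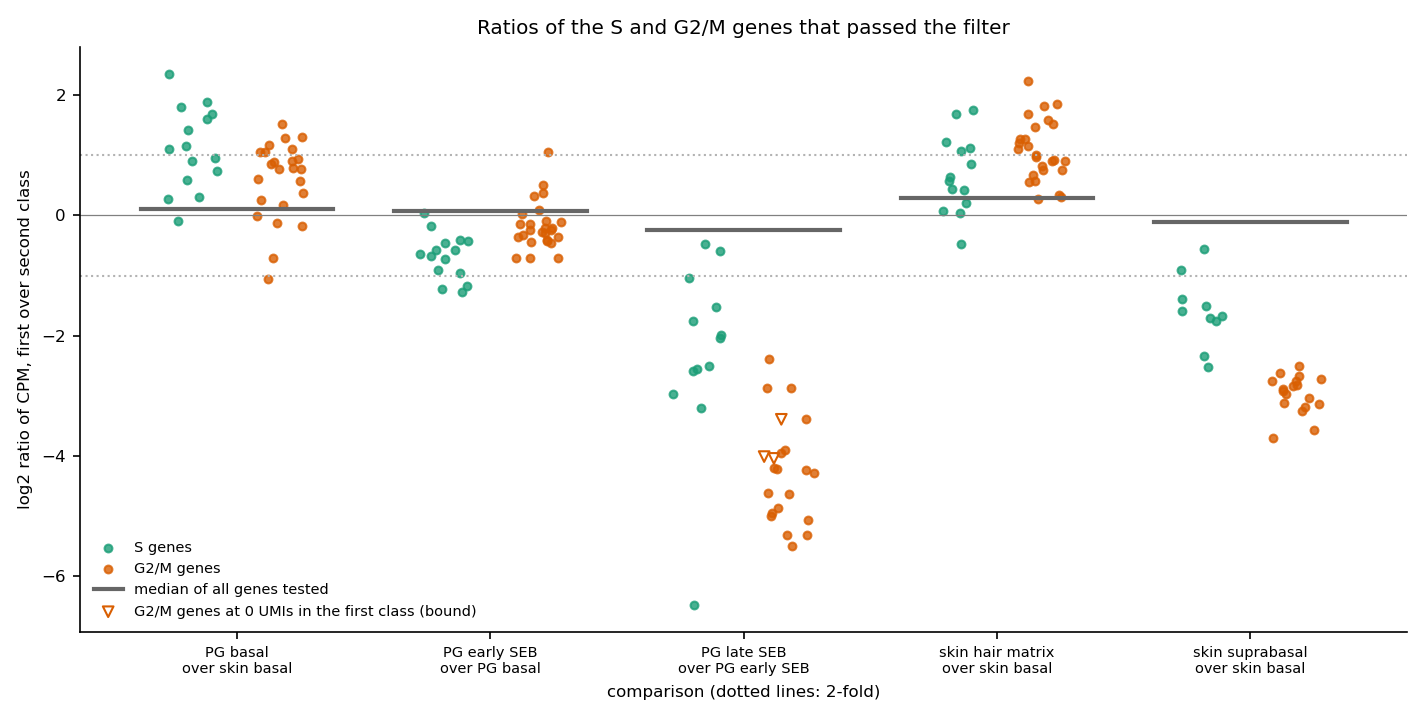
Log2 ratio of CPM between classes for each S gene (green) and G2/M gene (orange) that passed the filter, in 5 comparisons, with dotted lines at 2-fold, grey bars at the median of all genes tested and open triangles at the bound of genes with 0 UMIs in the first class. G2/M genes lie below -2 in late over early SEB and in suprabasal over basal cells, and both lists lie mostly above 0 in PG over skin basal cells and in hair matrix over basal cells.

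PG basal cells held more cycling cells than skin basal cells, by a log2 ratio of 1.11 (0.93 to 1.28) of the shares, and more S transcripts. The S genes summed to 899 CPM against 478, a log2 ratio of 0.91 (0.85 to 0.98), and the G2/M genes to 1400 against 1000, a log2 ratio of 0.48 (0.44 to 0.53). The 40 other S genes gave 0.45 (0.40 to 0.50), with 6 of 30 at least 2-fold higher and 0 lower. The 44 other G2/M genes gave 0.39 (0.34 to 0.43), with 9 of 38 higher and 2 lower. Their median log2 ratios were close, at 0.52 for other S and 0.58 for other G2/M genes. Of 15 S genes that passed, 8 were at least 2-fold higher in PG and 0 lower, and of 24 G2/M genes 7 were higher and 1 lower, where 15.5% of all genes were higher and 12.8% lower. *Exo1*, *Cdc6*, *Aurka*, *Bub1*, *Cdc25c* and *Ska1* were too low to be tested.

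The S genes higher in PG basal cells were *Rrm2* (log2 ratio 2.36, 2.04 to 2.69), *Mcm2* (1.88), *Mcm5*, *Cdt1*, *Mcm3*, *Uhrf1*, *Mcm7* and *Mcm6* (1.10). Most of them, like most of the S list, are parts of the replicative helicase or its loading. *Mcm4* (45.6 against 24.3 CPM) and *Gins2* (45.1 against 23.1 CPM), of the same helicase, did not reach 2-fold. *Tyms* (-0.10, -0.35 to 0.15) and *Rrm1* (0.28) were lowest in the list. Among G2/M genes, *Aurkb*, the kinase of the chromosomal passenger complex, was highest (1.52, 1.12 to 1.91) and *Ccnb2* followed (1.30). The spindle proteins *Nusap1* (-1.06, -1.35 to -0.77) and *Hmmr* (-0.70, -1.04 to -0.36) went the other way. Close to even were *Top2a* (-0.12), *Cenpf* (-0.18) and *Kif20b* (16.7 CPM in PG against 16.8 in skin). Of the 24 G2/M genes that passed, 19 were above 0, with a median log2 ratio of 0.79 against 0.10 for all genes. Most of the list was thus higher in PG, with the exceptions named.

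The size of this difference between tissues varied with the way cells were called, from a log2 ratio of 0.58 with 84 other S and G2/M genes in place of the members to 1.19, and it kept its direction throughout. Immediate early genes, which respond within minutes to tissue dissociation, also differed between these classes, in the opposite direction. A list of 10 of them (*Fos*, *Fosb*, *Jun*, *Junb*, *Jund*, *Egr1*, *Ier2*, *Atf3*, *Dusp1* and *Zfp36*) summed to 9120 CPM in skin basal and 976 CPM in PG basal cells. The median mitochondrial share was 2.04% and 3.38%. The list was drawn up after expression had been seen, and its part in the difference was not tested.

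PG early SEB, which hold basal and sebocyte markers together, were below PG basal cells in the summed level of both lists, and less so in G2/M genes. The log2 ratio of shares was -0.58 (-0.99 to -0.17) for S calls and -0.11 (-0.48 to 0.27) for G2/M calls, and -0.36 (-0.65 to -0.07) for cycling. The intervals of the S and G2/M calls overlapped. The S genes summed to 592 CPM against 899 (log2 ratio -0.60, -0.71 to -0.49) and the G2/M genes to 1190 against 1400 (-0.24, -0.32 to -0.16). Outside the lists the distance was smaller, with -0.40 (-0.48 to -0.31) for 40 other S genes. For 44 other G2/M genes it was -0.23 (-0.31 to -0.16), so these intervals met. Of 15 S genes that passed, 3 were at least 2-fold lower and 0 higher, namely *Uhrf1* (-1.27), *Mcm3* (-1.23) and *Clspn* (-1.18), which carries the replication checkpoint. Of 26 G2/M genes 1 passed 2-fold, *Plk1*, upward (1.05, 0.48 to 1.62), and 0 when ratios were divided by the median of all genes. The background was 1.66% higher and 2.69% lower, and *Exo1*, *Cdc6*, *Bub1* and *Ska1* did not pass the filter.

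Within the G2/M list, *Cdk1* (-0.71, -1.16 to -0.28) and *Top2a* (-0.70, -1.01 to -0.41) were lower in early SEB, and *Cdkn3*, a phosphatase of cyclin-dependent kinases, stood at 0.51 (-0.03 to 1.02). *Tyms* (0.04) and *Rrm2* (-0.17) were even among the S genes. The difference in cycling between early SEB and basal cells was small and ran from -0.74 without cells near the cut of their gate to -0.08 without thinning. The 2 classes are parts of a continuum of sebocyte markers, so the place of the cut sets part of this value.

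Late SEB had few UMIs of the G2/M members and more of the S members, as had fibroblasts. PG fibroblasts held 46.8 CPM (33.3 to 64) of the G2/M genes and 230 CPM (199 to 265) of the S genes. Skin fibroblasts held 86.5 and 169 CPM. The S level of late SEB, at 158 CPM (138 to 180), was thus not above this background. The log2 ratio of cycling shares, late over early, was -4.03 (-5.67 to -2.39), and -0.54 without thinning. The G2/M genes stood at 53.9 CPM against 1190 (log2 ratio -4.46, -4.81 to -4.13), and the S genes at 158 against 592 (-1.91, -2.12 to -1.69), so the intervals of the lists did not overlap. The distance between the phases was smaller in the summed level of genes outside the lists. It was -2.10 (-2.25 to -1.95) for 44 other G2/M genes and -1.55 (-1.70 to -1.41) for 40 other S genes. The median log2 ratio of those that passed was -3.01 for other G2/M and -1.48 for other S genes. The medians of the members were -4.23 and -2.03. Of 22 G2/M genes that passed all 22 were at least 2-fold lower, and of 13 S genes 11, where 17.3% of all genes were lower and 7.65% higher. With at least 100 UMIs in both classes together only 6 G2/M and 2 S genes passed, of which 6 and 1 were lower, against 10.5% of all genes. The 22 had between 0 and 12 UMIs in late SEB and passed through their level in early SEB. Among members with a UMI in late SEB, *Pclaf* had the lowest S ratio with 1 UMI against 85 (-6.48, -11.80 to -3.96). The lowest G2/M ratios were those of the spindle motor *Kif11*, with 1 against 43 UMIs (-5.49), and *Cdc20*, with 2 against 76 (-5.31).

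No UMI was found in late SEB for 12 members, *Clspn*, *Uhrf1*, *Cdc6*, *Aurka*, *Plk1*, *Bub1*, *Cdc25c*, *Cdkn3*, *Kif20b*, *Kif23*, *Ska1* and *Melk*. With the limit of 3 UMIs for a count of 0 over the class, log2 ratios were at most -4.04 for *Cdkn3*, -4.01 for *Plk1*, -3.39 for *Kif23* and -3.13 for *Uhrf1*. Besides those at 0, *Exo1* did not pass the filter, and of those at 0 only *Plk1*, *Cdkn3* and *Kif23* did. The genes that stayed nearest to their early level were *Tyms* (-0.48, -1.04 to 0.06), *Gins2* (-0.59, -1.42 to 0.22) and *Pcna* (-1.04, -1.53 to -0.57), and among G2/M genes *Knstrn* (-2.39) and *Hmmr* (-2.87). Free RNA, estimated from barcodes with at most 10 UMIs, could give 27.5% of the G2/M level of late SEB but 5.43% of their S level, and with it subtracted the G2/M ratio was -4.92. The estimate was rough, since elsewhere it exceeded the whole G2/M level. It came to 131% in PG and 360% in skin fibroblasts, where it was set on late sebocyte markers, and to 156% in skin intermediate SEB.

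Skin hair matrix cells exceeded basal cells in both lists. The log2 ratio of cycling shares was 1.20 (0.97 to 1.44), with 1.08 for S and 1.52 (1.24 to 1.80) for G2/M calls. The S genes summed to 776 CPM against 478 (log2 ratio 0.70, 0.61 to 0.78) and the G2/M genes to 2040 against 1000 (1.02, 0.97 to 1.08). Summed, the 40 other S genes gave 0.57 (0.51 to 0.64) and the 44 other G2/M genes 0.64 (0.58 to 0.69), which overlap. Gene by gene they lay further apart, with a median log2 ratio of 0.54 for other S and 0.96 for other G2/M genes. Of those that passed, 5 of 32 other S genes were at least 2-fold higher and 0 lower. Among other G2/M genes 17 of 38 were higher and 1 lower, beside 16.9% and 14% of all genes. The ratio of cycling shares was 0.64 with the other genes in place of the members. It was 0.71 when thinned to 2000 UMIs, which also left out the cells with fewer. Past 2-fold were 5 of 14 S genes (*Mcm2*, *Pclaf*, *Rrm2*, *Mcm7* and *Uhrf1*) and 12 of 26 G2/M genes, with 0 lower in either list, against a background of 16.9% higher and 14% lower. With ratios divided by the median of all genes, 2 S and 7 G2/M genes were left past 2-fold. *Exo1*, *Cdc6*, *Cdt1*, *Aurka* and *Cdc25c* did not pass the filter.

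The spindle checkpoint kinase *Bub1* (2.24, 1.67 to 2.82) and the kinetochore motor *Cenpe* (1.85, 1.54 to 2.16) led the G2/M genes in hair matrix, and *Cdkn3* (0.28, -0.32 to 0.84) and *Nusap1* (0.30, 0.03 to 0.57) were nearest to even. Of the S genes *Mcm6* (0.04), *Pcna* (0.08, -0.16 to 0.31) and *Gins2* (-0.47, -1.05 to 0.07) did not exceed basal cells beyond counting error. Cycling hair matrix cells had a median of 15.4 hair matrix marker UMIs per 10000, against 41.8 in uncalled ones. Immediate early genes summed to 1220 CPM in hair matrix and 1530 CPM in inner root sheath, far below the 9120 CPM of basal cells, and their part in this comparison was not tested.

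Skin suprabasal keratinocytes were below basal cells in both lists. The log2 ratio of cycling shares was -2.18 (-2.61 to -1.75), with -2.04 for S and -2.93 for G2/M calls. The S genes summed to 173 CPM against 478 (-1.47, -1.57 to -1.37) and the G2/M genes to 136 against 1000 (-2.88, -2.98 to -2.78). Outside the lists both ratios were nearer to even, at -1.09 (-1.15 to -1.03) for 40 other S genes. For 44 other G2/M genes the ratio was -1.63 (-1.69 to -1.56). All 18 G2/M genes that passed were at least 2-fold lower, from *Nusap1* (-3.70) and *Hmmr* (-3.57) to *Cenpa* (-2.62) and *Top2a* (-2.51), and 8 of 10 S genes, where 10.2% of all genes were lower and 8.85% higher. *Pclaf* (-2.52) and *Clspn* (-2.34) were lowest of the S genes, and *Rrm2* (-0.90) and *Pcna* (-0.56, -0.74 to -0.38) were within 2-fold. The filter left out 7 S genes (*Mcm2*, *Mcm3*, *Mcm5*, *Exo1*, *Uhrf1*, *Cdc6* and *Cdt1*) and 10 G2/M genes (*Aurka*, *Aurkb*, *Plk1*, *Bub1*, *Bub1b*, *Cdc25c*, *Cdkn3*, *Kif20b*, *Ska1* and *Melk*).

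The 46 cycling suprabasal cells had a median of 104 basal and 168 suprabasal marker UMIs per 10000, against 17.2 and 355 in the uncalled cells, and a median of 5088 UMIs against 3073. Without the cells most like simulated doublets the ratio of cycling shares was -3.12, with at least 3 genes per call -3.22, with the other genes in place of the members -1.18 and without thinning -0.98. In PG the 13 suprabasal cells gave a log2 ratio of -1.91 over basal cells, with an interval from -4.63 to 0.80 that includes no difference.

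The calls were set beside 40 other S genes and 44 other G2/M genes of the cell cycle that they did not use. In skin basal cells without a call these summed to 674 CPM for S and 381 CPM for G2/M. Cells called S only had 2730 and 1030 CPM, cells with both calls 3540 and 6410 CPM, and cells called G2/M only 1610 and 6500 CPM. PG basal cells gave 756 and 451 CPM without a call, 2700 and 942 with S only, 3600 and 5260 with both and 1540 and 5750 with G2/M only. The S and G2/M calls thus separated genes outside the lists in the same order in both libraries.

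The same split held in the hair bulb and in early SEB. In hair matrix the other G2/M genes summed to 292 CPM in uncalled cells and 5700 CPM in cells called G2/M only, and in early SEB to 397 and 5160 CPM. Uncalled basal cells still held more of the other S genes than uncalled late SEB (756 against 350 CPM in PG), and a cell without a call was not taken to be out of the cycle. Cycling cells had more UMIs than uncalled cells of their class before thinning, by a ratio of medians between 1.02 and 1.71 in 10 classes, and fewer in PG duct cells (0.897).

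Among the members themselves, levels in cells with 1 call are a description only, since the calls used these genes. A higher level of S genes in S cells, or of G2/M genes in G2/M cells, was favoured by the selection. Such a level does not show the phase of a gene. In PG epithelium *Mcm2* was at 130 CPM in cells called S only and 8.89 in cells called G2/M only, and *Cdc6* at 16.1 and 2.22. *Pclaf* was at 159 and 215 CPM, and *Rrm1* at 127 and 131, so in PG these S genes were not lower in cells called G2/M only. *Cenpf* went from 4.6 to 516 CPM and *Top2a* from 48.3 to 454. In skin *Top2a* was at 160 CPM in cells called S only, against 13.1 in uncalled cells and 935 in cells called G2/M only.

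**Figure D5:**
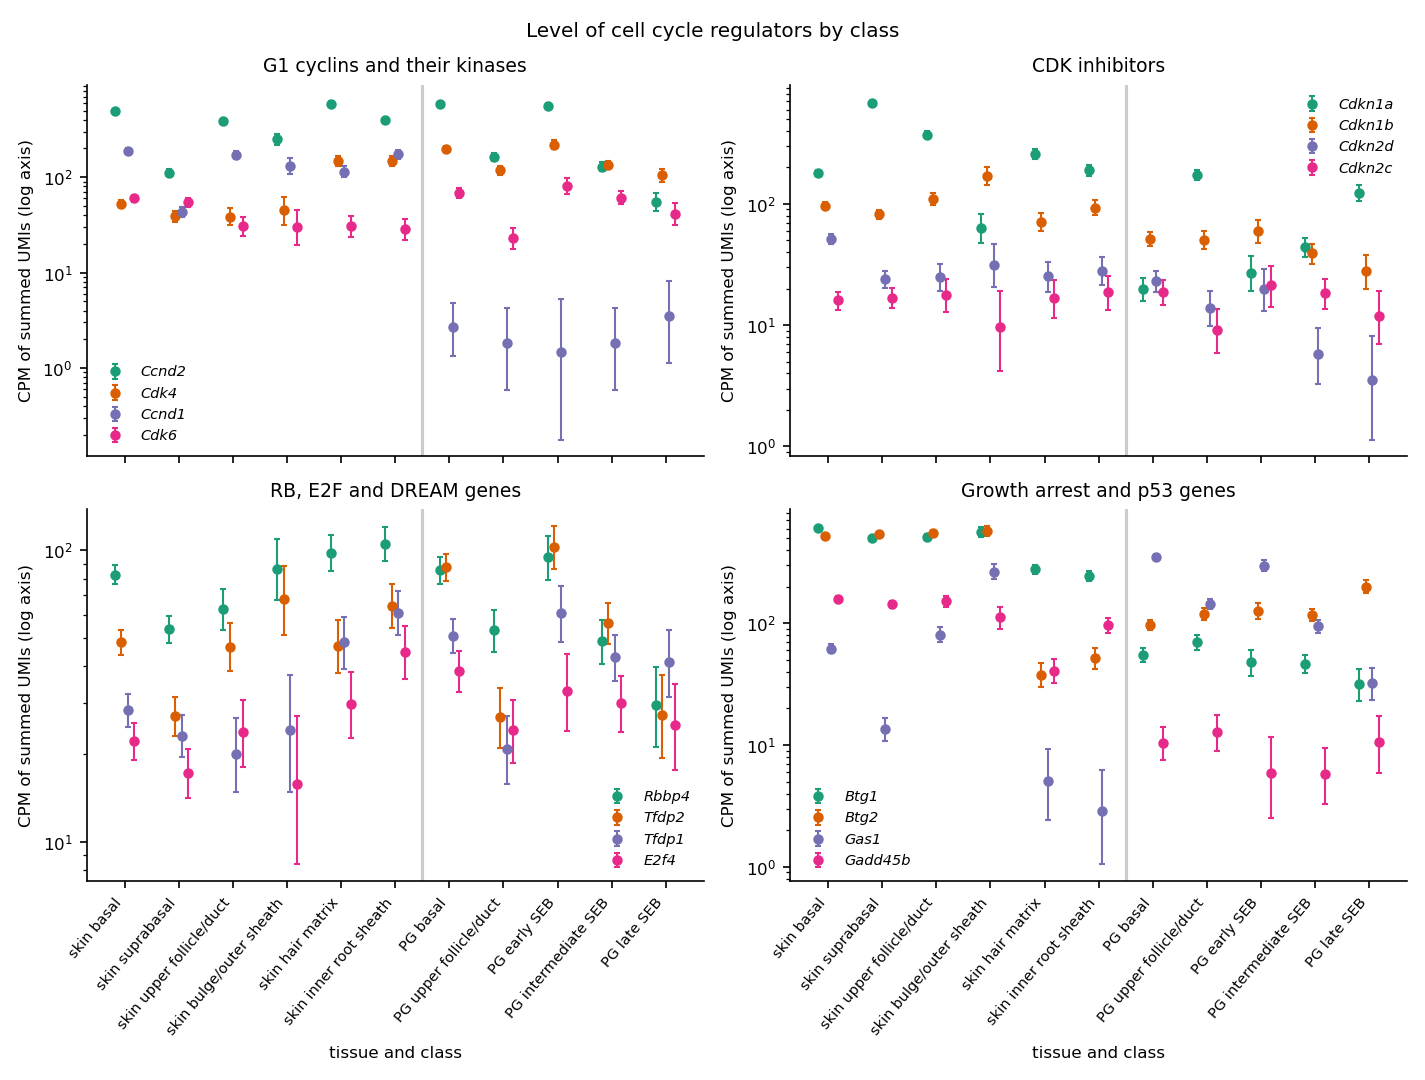
Level of the named regulators (CPM of summed UMIs with 95% intervals, log axis) by class in skin (left of the grey line) and PG (right), in 4 panels: G1 cyclins and kinases, inhibitors of cyclin-dependent kinases, the Rb, E2F and DREAM genes, and growth arrest genes. *Ccnd1* stands at 2.67 CPM in PG basal cells and 190 in skin basal cells, and *Cdkn1a* is highest in skin suprabasal cells.

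A further 4 lists of regulators were drawn from the pathway, and up to 4 genes of each with most UMIs are described. D-type cyclins, which with Cdk4 and Cdk6 start the cycle, were not alike in the tissues. *Ccnd1* was at 190 CPM in skin basal, 114 in hair matrix and 43.1 in suprabasal cells, and between 1.47 and 3.5 CPM in PG basal cells, duct cells and SEB. PG basal cells were lower than skin basal cells by a log2 ratio of -6.16 (-7.16 to -5.31). *Ccnd2* was at 582 CPM in PG basal cells and 500 in skin basal cells, and *Cdk4* at 199 and 52.7 CPM (log2 ratio 1.92, 1.75 to 2.09). *Cdk4* was also higher in PG fibroblasts than in skin fibroblasts (110 against 33.7 CPM). In PG duct cells it was at 118 CPM, against 38.6 in skin upper follicle cells. *Ccnd1* was lower in PG fibroblasts too (28.8 against 107 CPM), so neither difference was particular to basal cells. In the list of 10 G1 cyclins and kinases all 10 passed in this comparison, of which *Cdk4* was higher and *Ccnd1* and *Cdc25b* (-1.03) lower, with 15.5% of all genes higher and 12.8% lower.

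*Ccnd2* was low where few cells cycled in the PG lineage. It stood at 554 CPM in PG early SEB, 129 in intermediate SEB, 162 in duct cells and 55.3 in late SEB, with late over early SEB at -3.33 (-3.68 to -2.99). In skin it was at 588 CPM in hair matrix, 393 in inner root sheath and 387 in upper follicle cells, which had few cycling cells, and at 112 in suprabasal cells. *Ccnd2* and the share of cycling cells were thus not in one order across classes.

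*Cdkn1a*, which encodes the kinase inhibitor p21, was higher in suprabasal than in basal cells of skin and in late than in early SEB. It was at 680 CPM in skin suprabasal and 181 in basal cells (log2 ratio 1.91), and in PG at 19.9 in basal cells, 27.1 in early, 43.7 in intermediate and 122 in late SEB (late over early 2.17, 1.66 to 2.73) and 173 in duct cells. Hair matrix, with many cycling cells, had 258 CPM. *Cdkn1b* (p27) and *Cdkn2d* were lower in late than in early SEB, by log2 ratios of -1.08 and -2.50. Of 7 inhibitors 5 passed in suprabasal over basal cells, with 2 higher (*Cdkn1a* and *Cdkn2b*, 36.9 against 2.74 CPM) and 1 lower (*Cdkn2d*), where 8.85% of all genes were higher and 10.2% lower. In PG over skin basal cells 4 passed, with 0 higher and 2 lower (*Cdkn1a* and *Cdkn2d*), beside 15.5% and 12.8% of all genes. *Cdkn2b* was also at 20.7 CPM in hair matrix and 21.5 in inner root sheath, where many cells cycled. *Cdkn2b*, like *Cdc25b* and the genes marked below, was named after its values were seen.

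The Rb, E2F and DREAM list held 20 genes. In hair matrix over basal cells 15 passed, 5 were at least 2-fold higher and 0 lower, and these were, named after their values were seen, *E2f2* (3.23), *E2f3* (3.10), *Rb1* (2.23), *Foxm1* (1.69) and *Rbl1* (1.32). Of all genes 16.9% were higher and 14% lower in this comparison, and 9.59% higher after division by the median. In late over early SEB 7 passed and 2 were lower, *Tfdp2* (-1.91) and *Rbbp4* (-1.69), an E2F partner and a histone-binding subunit of DREAM, where 17.3% of all genes were lower. *E2f4*, the E2F of resting cells, stayed within 2-fold in all 5 comparisons. In PG over skin basal cells 11 passed, with 0 lower and 2 higher, *E2f6* (1.74) and *Rbl1* (1.09), named after their values were seen, against 15.5% of all genes.

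Growth arrest and p53 genes differed between the basal cells of the tissues in both directions. *Btg1* was at 55.1 CPM in PG basal and 610 CPM in skin basal cells, *Btg2* at 96.8 and 522, and *Gadd45b* at 10.4 and 158, while *Gas1* was at 353 and 62. Of 10 genes 9 passed, of which *Gas1*, *Myc* (1.85) and *Ccng1* (1.56) were higher in PG, the last 2 named after their values were seen, and *Btg1*, *Btg2* and *Gadd45b* lower, beside 15.5% and 12.8% of all genes. *Btg2* and *Gadd45b* are also induced by stress, and the immediate early genes stood apart in the same direction between the basal classes, at 976 CPM in PG and 9120 in skin, though their part was not tested. In fibroblasts the immediate early genes summed to 8200 CPM in PG and 6260 CPM in skin, *Btg1* was at 210 and 313 CPM, *Btg2* at 294 and 119 and *Gadd45b* at 221 and 177. *Gas1*, a membrane protein of quiescent cells, was at 298 CPM in early and 32.2 in late SEB, and at 62 CPM in skin basal cells and 5.05 in hair matrix.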

How the data were processed

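Single cells of back skin and PG were measured as 1 droplet library per tissue, each pooled from 3 mice. The authors deposited raw UMI counts per gene and barcode, made with Cell Ranger 4 per the file headers and build mm10 per the submitters' processing notes. The annotation release is not given in the sources used here. Kept barcodes reached 500 genes and 1000 UMIs, with mitochondrial transcripts limited to 10%. Each epithelial cell went to the class whose markers exceeded their cut by most. Cuts were set on marker UMIs after their distribution had been seen, never on members. Doublets were left out only as an alternative, beside the cells mixed between lineages. Shares were called after thinning to 1000 UMIs, with exact Clopper-Pearson intervals. CPM had exact Poisson intervals, CPM ratios exact binomial intervals and share ratios log intervals, all at 95% and for counting error only. No p-value was computed. The members and lists were chosen with earlier results of these data known. Described singly were the 5 members of each list with most UMIs, the highest and lowest 2 of each list per comparison, and at most 4 genes per regulator list; others named beside them were chosen after their values were seen. Programs were tested on simulated data. Python 3.11.15, numpy 2.4.6, scipy 1.17.1, pandas 2.3.3, scikit-learn 1.9.0 and matplotlib 3.10.9 were used.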

Additional observations from a re-analysis of the deposited data

Results flagged for a closer look

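Cycling calls also appeared among barcodes that no comparison used, at shares above the limit that a count of 0 allows. Of skin cells without a class 36.3% were cycling (94 of 259, 30.4 to 42.5%, limit 1.16%), more than in any skin class of at least 100 cells, though the interval overlapped those of hair matrix and inner root sheath. Of PG cells without a class 31.9% were cycling (43 of 135, 24.1 to 40.4%, limit 2.22%). Unassigned skin cells held 16.8 epithelial, 4.2 hair matrix and 5.38 inner root sheath marker UMIs per 10000, and those of PG 21.1 epithelial and 17.9 sebocyte marker UMIs per 10000. Of cells mixed between lineages 8.71% were cycling in skin (31 of 356, limit 0.843%) and 11.9% in PG (29 of 243, limit 1.23%). Of barcodes above the mitochondrial limit 22.8% were cycling in skin (53 of 232, limit 1.29%) and 12.1% in PG (80 of 662, limit 0.453%). The origin of these cells was not tested.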

How the results depend on the processing

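No paired analysis was possible because each tissue was 1 library and no test was run. No ratio reversed. Of the cycling shares of classes under the alternatives, 118 stayed within the interval of the reported value and 77 moved outside it. Those of PG basal cells ran from 14.2 to 44.6%, and those of PG early SEB from 12.4 to 42.1%. In skin they ran from 9.02 to 25.9% in basal cells and from 22.4 to 42.1% in hair matrix. Among the log2 ratios of summed lists, 11 stayed and 9 moved. Of the log2 ratios of cycling shares, 63 stayed within the interval of the reported value and 21 moved outside it. Thinning to 2000 UMIs also left out the cells with fewer than 2000 UMIs. For PG over skin basal cells (1.11) the ratio was 0.91 with a stricter cell filter (1000 genes, 2000 UMIs), 0.84 without thinning, 0.90 when thinned to 2000 UMIs, 0.63 with a UMI of *Mki67* or *Top2a* as the call and 0.58 with other genes in place of the members. For PG early SEB over basal cells (-0.36) it was -0.68 with the stricter filter and -0.74 without cells near the cut of their gate. For late over early SEB (-4.03) it was -0.54 without thinning and -2.37 with other genes. For hair matrix over basal cells (1.20) it was 0.85 with the stricter filter, 0.76 without thinning, 0.71 at 2000 UMIs, 1.55 with at least 3 genes per call, 0.64 with other genes, 0.76 gated on thinned counts and 0.95 without cells near the cut. For suprabasal over basal cells (-2.18) it was -3.12 without likely doublets, -0.98 without thinning, -3.22 with at least 3 genes, -1.18 with other genes and -2.62 without *Pcna* and *Top2a*. The gate on thinned counts and the removal of cells near the cut were chosen after seeing the data.

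With the stricter cell filter the summed lists gave 0.33 for G2/M in PG over skin basal cells, -0.80 (S) and -0.42 (G2/M) in early SEB over basal cells, 0.55 and 0.70 in hair matrix and -1.60 and -3.10 in suprabasal over basal cells. With free RNA subtracted the G2/M genes gave -4.92 in late over early SEB and -3.06 in suprabasal over basal cells. Divided by the median ratio of all genes, 0 G2/M genes were higher in early SEB, and 2 S and 7 G2/M genes in hair matrix. Asking for 100 UMIs left 1 S and 6 G2/M genes lower in late SEB, since fewer genes were tested. The cause of the other changes was not tested. PG suprabasal cells gave no value where no cycling cell was left, and late over early SEB none without the barcodes of most UMIs. The number of cells limits sSEB (13 to 23 per stage) and PG suprabasal cells (13).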

Other observations

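Of immune cells 5.65% were cycling in skin (14 of 248, 3.12 to 9.29%) and 6.52% in PG (12 of 184, 3.41 to 11.1%), so the intervals overlapped. Of endothelial cells 1 of 82 was cycling in skin (1.22%) and 3 of 46 in PG (6.52%, 1.37 to 17.9%). The latter held 756 CPM of the G2/M genes (571 to 981) and 310 CPM of the S genes. Of 23 skin melanocytes 1 was cycling after thinning (4.35%, 0.11 to 21.9%) and 39.1% without it, and they held 749 CPM of the S genes (578 to 955) and 865 CPM of the G2/M genes (680 to 1080). Of 44 skeletal muscle cells of skin 0 were cycling, where a count of 0 allows up to 6.82%. Epithelial cells that met no gate beyond the epithelial one were cycling in 25% of 124 cells in skin (17.7 to 33.6%) and 27% of 137 in PG (19.8 to 35.3%).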
